A study of Mus musculus with 8 samples.

Results

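The 8 genes described serve sterol synthesis, its regulation and sterol efflux, out of the 55414 gene identifiers counted in spleen neutrophils of WT and *Cxcr2-/-* mice. They were chosen by their symbols, matched through GENCODE M21, and not by a threshold on their values. Earlier results of these data were known when they were chosen. Hmgcs1, Idi1, Fdps and Sqle encode enzymes of cholesterol synthesis. Srebf1 and Srebf2 encode the transcription factors that drive it, Insig1 encodes a protein that restrains these factors, and Abca1 encodes a pump that moves cholesterol out of the cell. Neutrophils came from 4 WT and 4 *Cxcr2-/-* mice, all aged 10 weeks and on the FVB background, housed in a facility free of specific and opportunistic pathogens. Mutant mice lacked *Cxcr2*, a chemokine receptor, in all of their cells and not in neutrophils alone. Cells were enriched for CD11b and sorted as CD45+ CD11b+ Ly6G+ F4/80- cells, and each mouse gave 1 RNAseq library, counted per gene without normalization.

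Cholesterol is built from acetyl-CoA through the mevalonate pathway. Its early steps yield prenyl diphosphates, which also feed protein prenylation, dolichol and ubiquinone, and its later steps turn squalene into cholesterol. The SREBP factors are made as precursors in the membrane of the endoplasmic reticulum. When sterols are low, the escort protein Scap carries them to the Golgi, where the proteases encoded by Mbtps1 and Mbtps2 release the active part, and when sterols are high, Insig proteins hold them back. Srebf2 mainly drives sterol genes and Srebf1 mainly fatty acid genes, and Insig1 is itself a target of the SREBP factors. Oxidized sterols act on the LXR receptors, which raise efflux genes such as Abca1 and Abcg1.

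The promoters are shown first because these genes are textbook examples of control by SREBP factors through short DNA elements. The RefSeq promoter table (GRCm38.p6, C57BL/6J reference, not FVB) had entries for 6 of the 8 members, and Sqle and Fdps had none. Within the 250 bases before each start site, 4 motifs were searched on both strands, namely the SRE core of SREBP (TCACNCCAC), the E-box (CACGTG), the NF-Y box (CCAAT, which reads ATTGG on the other strand) and the GC box (GGGCGG). In the sequences below, capitals mark the SRE core, E-box and NF-Y box matches. The windows are chr13:119690101-119690350 for Hmgcs1, chr13:8885356-8885605 for Idi1, chr15:82147019-82147268 for Srebf2 and chr5:28071162-28071411 for Insig1, all on the plus strand. RefSeq start sites differ from the M21 gene starts given further down, and for Idi1, Srebf2 and Insig1 the window reaches into the M21 gene.
Hmgcs1: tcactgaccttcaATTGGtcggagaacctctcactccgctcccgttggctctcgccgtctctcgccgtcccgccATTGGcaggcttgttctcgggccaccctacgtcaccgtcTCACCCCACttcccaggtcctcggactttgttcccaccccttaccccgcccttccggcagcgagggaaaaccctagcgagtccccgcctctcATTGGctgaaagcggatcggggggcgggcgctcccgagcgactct
Idi1: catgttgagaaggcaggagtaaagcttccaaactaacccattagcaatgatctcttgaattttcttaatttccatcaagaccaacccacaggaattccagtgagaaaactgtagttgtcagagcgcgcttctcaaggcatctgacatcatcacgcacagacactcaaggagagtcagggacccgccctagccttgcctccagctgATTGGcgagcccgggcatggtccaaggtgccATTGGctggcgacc
Srebf2: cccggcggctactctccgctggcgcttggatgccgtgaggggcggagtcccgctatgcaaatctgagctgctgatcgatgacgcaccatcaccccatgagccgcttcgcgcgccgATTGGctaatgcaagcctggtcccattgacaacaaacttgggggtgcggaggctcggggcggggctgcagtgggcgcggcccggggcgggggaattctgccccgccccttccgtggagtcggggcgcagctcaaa
Insig1: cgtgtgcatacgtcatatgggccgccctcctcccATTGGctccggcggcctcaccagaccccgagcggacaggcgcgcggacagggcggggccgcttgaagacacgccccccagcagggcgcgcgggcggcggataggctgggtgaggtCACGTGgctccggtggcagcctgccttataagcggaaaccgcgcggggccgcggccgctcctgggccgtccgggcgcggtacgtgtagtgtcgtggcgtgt

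The Hmgcs1 window held the only exact SRE core match among the 6 members, from base -137 to -129, counted back from -1 at the base before the start site. It also held 3 NF-Y boxes. Over all 32851 promoter windows, 1.05% had this SRE core, 6.02% the E-box, 33.8% the NF-Y box and 32.7% the GC box. Idi1 had 2 NF-Y boxes, Srebf2 had 1, and Insig1 had 1 with an E-box from -101 to -96. Abca1, on the minus strand, had an E-box from -147 to -142 and no NF-Y box. Of the 3 Srebf1 start sites in the table, 2 had an NF-Y box. Among the 21 synthesis genes described further down, 17 had a promoter entry, and an NF-Y box stood in a window of 16 of them, a GC box in 15, an E-box in 3 and the SRE core in 1. These matches describe letters in short windows and were not tested against binding. Near matches were not counted, such as tcaccccat in the Srebf2 window, which differs from the searched SRE core in its last base.

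**Figure D1:**
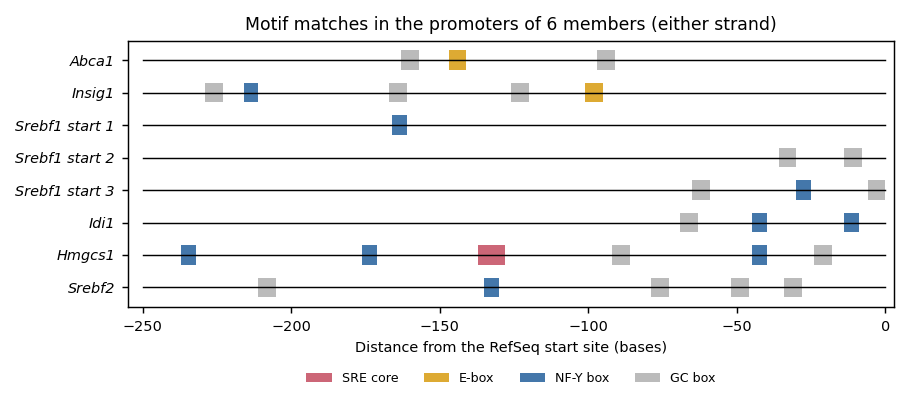
Motif matches in the 250 bases before the RefSeq start sites of 6 members, on either strand, by distance from the start site (x axis, bases). Each line is a start site (3 for Srebf1), and an exact SRE core match stands in the Hmgcs1 window only.

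The WT libraries held 34220182 to 46233555 counts on genes and the *Cxcr2-/-* libraries 37549648 to 43789253. The share of pairs meeting no gene was 31.4% to 41.5% in WT and 26.7% to 31.9% in *Cxcr2-/-* libraries (p = 0.0571 in a two-sided exact permutation test, 4 libraries a group). The share of counts on the top 10 genes was 9.45% to 11.6% in WT and 17.0% to 19.2% in *Cxcr2-/-* libraries (p = 0.0286, same permutation test). Neutrophil markers such as S100a8 and S100a9 were abundant in every library. Of 8 such markers, 6 were higher, S100a8 and S100a9 among them, and 1, Csf3r, was lower in *Cxcr2-/-* libraries (edgeR, as described below). Over all genes tested, 23.7% were higher and 21.0% lower. *Cxcr2* itself was between 1719 and 2252 CPM in WT mice and between 12.9 and 20.7 CPM in *Cxcr2-/-* mice, in the direction of each label. CPM are counts scaled to a common library size, after TMM normalization, so that values compare between libraries. The 2 *Cxcr2-/-* libraries of mice 3 and 4 stood apart from those of mice 1 and 2 in some genes of monocytes and of early granulocyte precursors. Ccr2 was at 34.4 and 45.7 CPM in mice 3 and 4, against 7.48 and 8.85 CPM in mice 1 and 2, and Mpo at 81.2 and 145.8 CPM against 19.1 and 20.2 CPM. Elane, Prtn3, Ctsg and Ms4a3 were higher in mice 3 and 4 as Mpo was. The immature neutrophil markers Ltf, Camp and Cebpe were instead lower there, Ltf at 18959 and 17392 CPM against 26104 and 21782 CPM. The monocyte marker Ly6c2 did not separate these mice. The counts of called genes and the members that change without the *Cxcr2-/-* libraries of mice 3 and 4 are therefore also given without them.

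Of the 8 members, 7 were higher in *Cxcr2-/-* neutrophils at an adjusted p under 0.05, by the quasi-likelihood test of edgeR on all 16778 genes tested, adjusted after Benjamini and Hochberg, and none was lower. Without the *Cxcr2-/-* libraries of mice 3 and 4, 5 were higher and 1, Insig1, was lower. With all libraries the same rule called 23.7% of all genes tested higher and 21.0% lower. The uncalled member was Insig1, the 1 member lower at an unadjusted p under 0.05 (0.0417 by edgeR), and DESeq2 also called no member lower. In 6 of the 8 the 4 WT and 4 *Cxcr2-/-* libraries did not overlap, which held for 41.6% of all genes. All 8 members passed the filter on low counts. The median log2 fold change, *Cxcr2-/-* over WT, was 0.98 for the members and 0.013 for all genes. Because the members were chosen with earlier results of these data known, these contrasts with all genes are not an independent test. In such bulk samples, fewer cells that express a gene cannot be told apart from less RNA of that gene per cell.

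**Figure D2:**
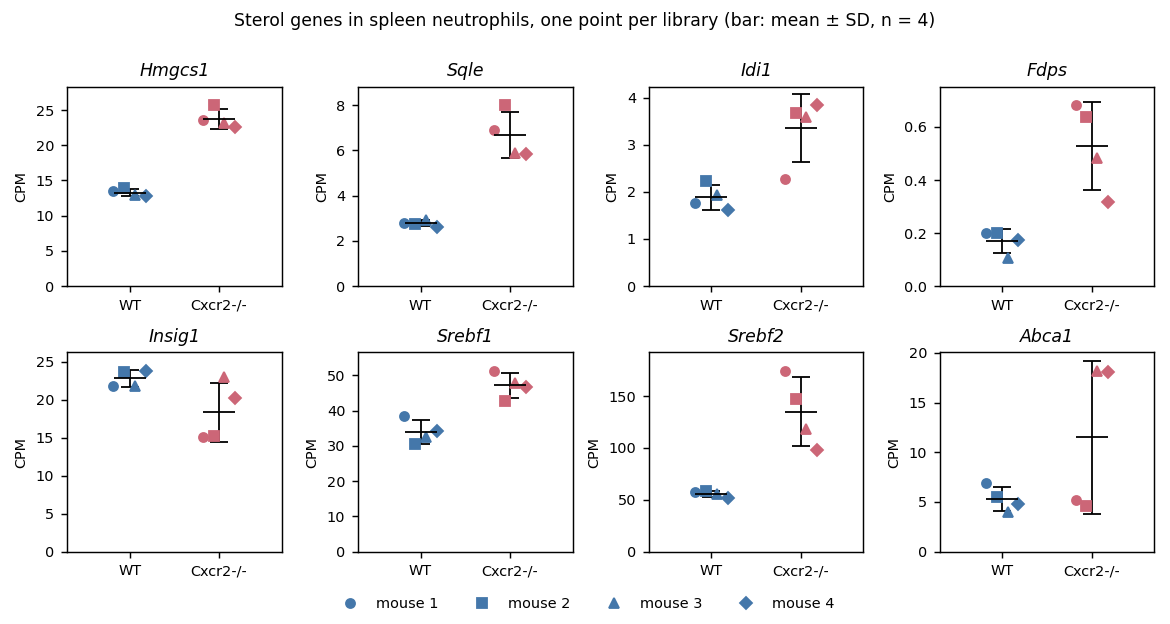
CPM (y axis, from 0) of the 8 members in the 4 WT (blue) and 4 *Cxcr2-/-* (red) libraries, with a point per mouse, its shape giving the replicate number, and bars for mean ± SD. The groups separate except for Insig1 and Abca1, where mice 3 and 4 of the *Cxcr2-/-* group differ from mice 1 and 2 (same-numbered mice of the groups are different animals).

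Hmgcs1, which encodes the HMG-CoA synthase that makes the precursor of mevalonate, lies on chromosome 13 from 119690379 to 119708260 of GRCm38 (ENSMUSG00000093930) and carries the SRE core match shown above. Its level was 13.5, 14.0, 12.9 and 12.8 CPM in the WT libraries and 23.5, 25.7, 23.2 and 22.5 CPM in the *Cxcr2-/-* libraries. Every *Cxcr2-/-* library was above every WT library, and the spread within each group was small. The log2 fold change was 0.84 ± 0.094 (SE, edgeR adjusted p = 1.93e-05), which is a 1.79-fold difference. GENCODE M21 places the antisense gene Gm48342 over 35.1% of its coding bases. The strand setting of the counting is not given in the sources used here, so pairs there are uncertain, and Gm48342 itself had between 15 and 36 counts per library.

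Sqle encodes squalene epoxidase, a rate-limiting enzyme of the later steps, and lies on chromosome 15 from 59315077 to 59331192 (ENSMUSG00000022351). It was at 2.81, 2.75, 2.94 and 2.63 CPM in WT mice and at 6.90, 8.0, 5.87 and 5.86 CPM in *Cxcr2-/-* mice. The groups were far apart. Its log2 fold change was 1.26 ± 0.16 (SE, edgeR adjusted p = 5.64e-05), a 2.39-fold difference that rested on 91 to 137 counts per WT library and 231 to 289 per *Cxcr2-/-* library.

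Idi1, on chromosome 13 from 8885501 to 8892451 (ENSMUSG00000058258), encodes the isomerase that interconverts the 2 basic isoprene units of the pathway. It was at 1.77, 2.23, 1.92 and 1.62 CPM in WT mice and at 2.28, 3.68, 3.58 and 3.84 CPM in *Cxcr2-/-* mice. The *Cxcr2-/-* library of mouse 1 lay close to the highest WT library, and the other 3 were higher. The log2 fold change was 0.82 ± 0.22 (SE, edgeR adjusted p = 0.00822). Without the *Cxcr2-/-* libraries of mice 3 and 4 it was 0.64 and did not pass (edgeR adjusted p = 0.0713, range over the alternatives 0.00201 to 0.0713).

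Fdps encodes farnesyl diphosphate synthase, the branch point between sterols and other isoprenoids, and lies on chromosome 3 from 89093588 to 89101959 (ENSMUSG00000059743). It had only 4 to 10 counts per WT library and 13 to 27 per *Cxcr2-/-* library. M21 places the same-strand gene Gm43738, which is also listed in the files, over 85.9% of its coding bases, and HTSeq counts a pair that meets both genes on neither. The Fdps values therefore cover a part of the gene, and its level cannot be set beside those of the other members. On that part it was at 0.199, 0.201, 0.107 and 0.173 CPM in WT mice and at 0.683, 0.636, 0.483 and 0.316 CPM in *Cxcr2-/-* mice. All *Cxcr2-/-* libraries were above all WT libraries, with a log2 fold change of 1.6 ± 0.41 (SE, edgeR adjusted p = 0.00684), and its adjusted p ranged from 0.00307 to 0.375 over the alternatives, the highest with the share of pairs that met no gene as a covariate.

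Among the regulators, Srebf2 showed the clearest difference. It encodes SREBP2 and lies on chromosome 15 from 82147181 to 82205379 (ENSMUSG00000022463). Its level was 57.2, 58.7, 55.2 and 51.3 CPM in WT mice and 174.6, 147.6, 118.6 and 98.2 CPM in *Cxcr2-/-* mice. The WT libraries lay close together while the *Cxcr2-/-* libraries spread widely, all above WT, with mouse 1 highest and mouse 4 lowest. The log2 fold change was 1.28 ± 0.15 (SE, edgeR adjusted p = 2.66e-05), a 2.42-fold difference, and it stayed between 0.98 and 1.52 over the alternatives.

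Srebf1, which encodes both SREBP1 isoforms, which a count per gene cannot separate, lies on chromosome 11 from 60199089 to 60222581 (ENSMUSG00000020538). It was at 38.4, 30.5, 32.4 and 34.2 CPM in WT mice and at 51.4, 42.8, 47.9 and 46.6 CPM in *Cxcr2-/-* mice. The groups did not overlap, but the difference was smaller than 1.5-fold, with a log2 fold change of 0.48 ± 0.098 (SE, edgeR adjusted p = 0.00160). With the share of pairs that met no gene as a covariate it was 0.24 and did not pass (edgeR adjusted p = 0.275, range over the alternatives 8.98e-04 to 0.275). Within a library, which no scaling affects, the ratio of Srebf2 to Srebf1 CPM ran from 1.49 to 1.92 in WT and from 2.11 to 3.45 in *Cxcr2-/-* neutrophils, a comparison chosen after the values were seen and not tested.

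Insig1, on chromosome 5 from 28071363 to 28078662 (ENSMUSG00000045294), was at 21.9, 23.7, 21.8 and 23.9 CPM in WT mice and at 15.1, 15.2, 23.0 and 20.3 CPM in *Cxcr2-/-* mice. Mice 1 and 2 of the *Cxcr2-/-* group were below all WT mice, mouse 3 lay among them and mouse 4 a little below. Its log2 fold change of -0.31 (SE 0.14) did not pass (edgeR adjusted p = 0.0833, range over the alternatives 0.00157 to 0.697). Without mice 3 and 4 it was lower in *Cxcr2-/-* neutrophils, at -0.60 on the log2 scale (edgeR adjusted p = 0.00157). Within a library, the ratio of Hmgcs1 to Insig1 CPM was 0.536 to 0.616 in WT and 1.01 to 1.69 in *Cxcr2-/-* neutrophils, also chosen after the values were seen.

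Abca1, the efflux pump, lies on chromosome 4 from 53030787 to 53159895 (ENSMUSG00000015243). It was at 6.85, 5.45, 3.98 and 4.8 CPM in WT mice and at 5.16, 4.54, 18.2 and 18.1 CPM in *Cxcr2-/-* mice. Mice 1 and 2 of the *Cxcr2-/-* group lay within the WT range, and mice 3 and 4 lay well above it. The pooled log2 fold change of 1.12 ± 0.41 (SE, edgeR adjusted p = 0.0398) therefore rested on 2 libraries. Without them it was -0.14 (edgeR adjusted p = 0.657), with the mean of the monocyte markers as a covariate -0.092 (edgeR adjusted p = 0.795), and with DESeq2 on all libraries 1.1 (adjusted p = 0.105). The monocyte covariate was 5.93 and 6.09 on the log2 scale in *Cxcr2-/-* mice 3 and 4, and 4.25 to 4.86 in the other libraries. It nearly marks these 2 libraries alone, so that fit cannot be told apart from leaving them out. The call was also lost when *Cxcr2-/-* mouse 3 or 4 or WT mouse 2, 3 or 4 alone was left out, with log2 fold changes of 0.80 to 1.12 and edgeR adjusted p of up to 0.135.

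The monocyte markers Ccr2, F13a1, Ms4a6c and Cx3cr1 were, like Abca1, higher in *Cxcr2-/-* mice 3 and 4 than in the other libraries. Ly6c2 did not follow Abca1. Csf1r was higher in *Cxcr2-/-* mice 3 and 4 than in mice 1 and 2, but below all WT libraries in each of them. Of the 6 monocyte markers, 4 were higher and 1 lower in *Cxcr2-/-* neutrophils by the same edgeR test, against 23.7% and 21.0% of all genes tested. Their summed level was 646.8 to 793.7 CPM in WT mice and 850.9 to 1008 CPM in *Cxcr2-/-* mice, highest in mice 3 and 4. Most of this sum was Ly6c2 and Csf1r. Ly6c2 was at 193.8 to 270.0 CPM in WT mice and 572.8 to 663.1 CPM in *Cxcr2-/-* mice, lowest of these in mouse 4. Csf1r was at 403.0 to 498.9 CPM in WT mice and 189.6 to 269.4 CPM in *Cxcr2-/-* mice. F13a1 was at 38.4 and 57.8 CPM in *Cxcr2-/-* mice 3 and 4, against 8.11 and 8.77 CPM in mice 1 and 2 and 3.70 to 8.24 CPM in WT. Markers of red cells and platelets were also highest in mice 3 and 4, with sums of 13.7 and 14.1 CPM against 4.09 to 9.70 CPM in the other 6 libraries. None of the 6 monocyte markers was at 0, and Csf1r was lower in all *Cxcr2-/-* libraries. The macrophage list had a sum of 30.8 to 83.2 CPM in WT mice and 15.2 to 34.5 CPM in *Cxcr2-/-* mice, where 1 of its 8 genes was called higher and 1 lower, none of the 8 at 0 except Cd163 in *Cxcr2-/-* mouse 1. Within the *Cxcr2-/-* group this sum was also higher in mice 3 and 4, at 26.6 and 34.5 CPM, than in mice 1 and 2, at 18.4 and 15.2 CPM. The sort excluded F4/80+ cells, and the F4/80 gene Adgre1 was still at 26.6 to 36.5 CPM in WT mice and 9.60 to 16.3 CPM in *Cxcr2-/-* mice.

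**Figure D3:**
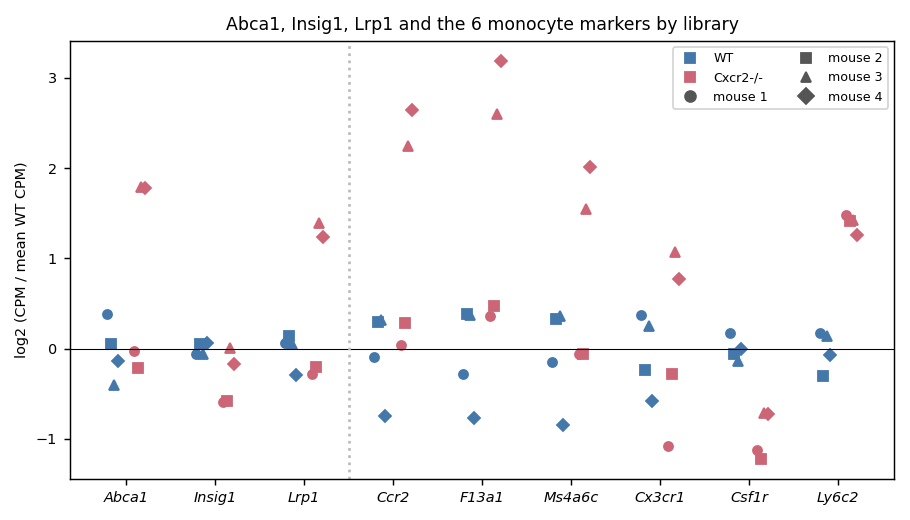
Level of Abca1, Insig1, Lrp1 and the 6 monocyte markers in each library, as log2 of CPM over the mean WT CPM (y axis), WT in blue and *Cxcr2-/-* in red, with shapes for the replicate number. *Cxcr2-/-* mice 3 and 4 stand above mice 1 and 2 in all genes shown but Ly6c2.

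Levels were also set side by side per length, as CPM per kb of exon, leaving out Fdps. In WT neutrophils Srebf2 was at 7.74 ± 0.445, Insig1 at 7.38 ± 0.360 and Srebf1 at 6.01 ± 0.601 CPM per kb (SD, n = 4), where the ranges of Srebf2 and Insig1 overlapped. Hmgcs1 followed at 2.89 ± 0.119, and Idi1, Abca1 and Sqle lay close together at 0.538 ± 0.0746, 0.509 ± 0.117 and 0.502 ± 0.0230 CPM per kb, with overlapping ranges. In *Cxcr2-/-* neutrophils Srebf2 stood alone at the top with 18.8 ± 4.65 CPM per kb. Srebf1 came next at 8.38 ± 0.628, then Insig1 at 5.95 ± 1.26 and Hmgcs1 at 5.17 ± 0.300, the ranges of the last 2 overlapping. Sqle, Abca1 and Idi1 were lowest at 1.20 ± 0.184, 1.11 ± 0.742 and 0.954 ± 0.206 CPM per kb. By these means per length, Srebf1, Srebf2 and Insig1 were above the enzyme genes Hmgcs1, Idi1 and Sqle in both groups. In *Cxcr2-/-* neutrophils the libraries do not settle the order of Insig1 and Hmgcs1, whose ranges overlapped. The level of Hmgcs1 is also uncertain, since Gm48342 lies over 35.1% of its coding bases.

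To place the enzymes among the members within their pathway, 21 genes of cholesterol synthesis were compared, from the acetyl-CoA thiolase Acat2 to the last reductases. Of these, 15 were higher in *Cxcr2-/-* neutrophils, 2 were lower and 4 were not called at an adjusted p under 0.05 (edgeR's quasi-likelihood test), with a median log2 fold change of 0.82. These are 71.4% and 9.52% of the list, against 23.7% higher and 21.0% lower over all genes tested. The list was also chosen with earlier results of these data known. The 15 include Hmgcs1, Sqle, Idi1 and Fdps. In the mevalonate part, mevalonate kinase Mvk was at 1.40 ± 0.287 CPM in WT mice and 4.08 ± 0.349 CPM in *Cxcr2-/-* mice (n = 4 each) and Mvd, the decarboxylase, at 34.04 ± 4.30 and 51.6 ± 11.6 CPM. Their log2 fold changes were 1.53 and 0.60 (edgeR adjusted p = 6.67e-05 and 0.00480). Acat2 was lower, at 6.28 ± 0.869 CPM in WT mice and 3.96 ± 0.469 CPM in *Cxcr2-/-* mice (log2 fold change -0.66, edgeR adjusted p = 0.00540). Pmvk and Ggps1 had log2 fold changes of 0.013 and 0.045 and did not pass.

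From squalene onward, 10 of 13 genes were higher, against 23.7% of all genes tested. Nsdhl and Fdft1, which encode a demethylation enzyme and squalene synthase, had log2 fold changes of 1.61 and 1.30. Cyp51, the lanosterol demethylase, was at 7.41 ± 0.635 CPM in WT mice and 13.9 ± 1.12 CPM in *Cxcr2-/-* mice, the log2 fold change being 0.91. The adjusted p values were 5.84e-06 for Nsdhl, 4.47e-05 for Fdft1 and 6.67e-05 for Cyp51 by the same edgeR test. Of these 13 genes Sc5d, a desaturase gene, was the only one lower, at -0.25 on the log2 scale (edgeR adjusted p = 0.0405). Lbr, a sterol reductase that is also a protein of the nuclear envelope, was far more abundant than the other genes and did not pass (0.20, edgeR adjusted p = 0.138). Without the *Cxcr2-/-* libraries of mice 3 and 4, 14 of the 21 were higher and 1 lower, and with the share of pairs that met no gene as a covariate 10 were higher and 1 lower. The shares of all genes called in those fits are not given here.

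**Figure D4:**
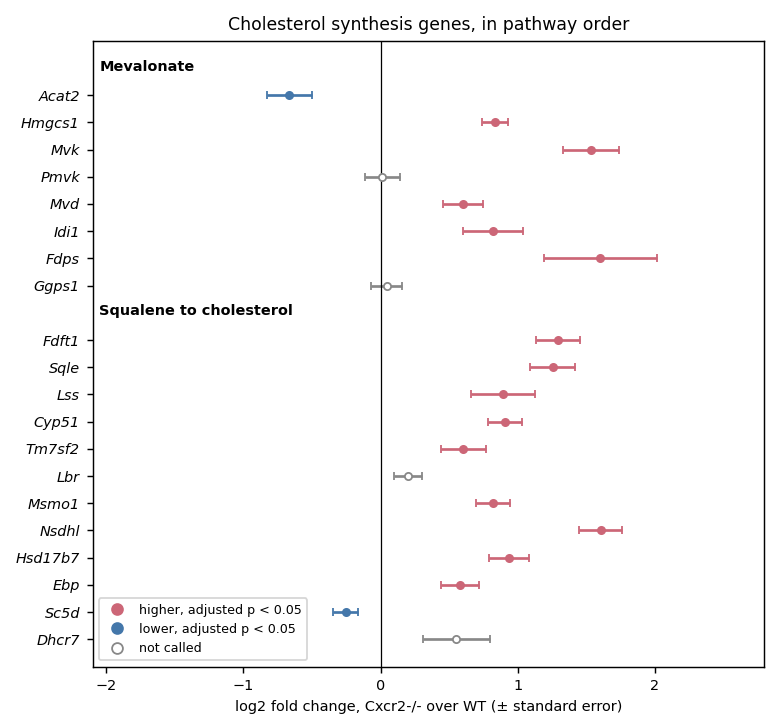
Log2 fold change, *Cxcr2-/-* over WT (x axis), with its standard error, of cholesterol synthesis genes in pathway order. Red and blue points passed an adjusted p under 0.05 as higher (14 genes shown) or lower (2 genes), and open points did not pass (4 genes).

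Other genes moved beside the synthesis genes. All 6 markers of cycling cells were higher in *Cxcr2-/-* neutrophils, their summed level being 273.1 to 322.9 CPM in WT mice and 871.3 to 975.6 CPM in *Cxcr2-/-* mice, and all 10 markers of immature neutrophils were higher, with sums of 19901 to 24470 CPM in WT mice and 46736 to 68335 CPM in *Cxcr2-/-* mice. No marker of these lists was at 0. Their part in the result was not tested. B cell markers were lower in *Cxcr2-/-* libraries, 5 of 6 by the edgeR test, with sums of 63.1 to 143.1 CPM in WT mice and 28.3 to 63.4 CPM in *Cxcr2-/-* mice. Over all genes tested, 23.7% were higher and 21.0% lower. With the mean of the markers of non-neutrophil cells as a covariate, 16 of the 21 synthesis genes were higher and 2 lower. This mean pools lists that moved in opposite ways, such as B cell and monocyte markers. On the log2 scale it was 1.88 to 2.41 in WT and 1.83 to 2.64 in *Cxcr2-/-* libraries. It therefore cannot adjust for the B cell difference alone. The share of all genes called with this covariate is not given here.

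In the list of 10 genes that control the SREBP factors, 4 were higher and 1 lower by edgeR's quasi-likelihood test (median log2 fold change 0.16), against 23.7% higher and 21.0% lower over all genes. Besides Srebf1 and Srebf2, the higher genes were Insig2, which encodes the other Insig protein, at 0.60 on the log2 scale (adjusted p = 0.00790), and the protease gene Mbtps2, with 0.56 (adjusted p = 0.00412), both by edgeR. Insig2 was at 7.79 ± 1.30 CPM in WT mice and 11.8 ± 1.89 CPM in *Cxcr2-/-* mice (n = 4 each). Fbxw7, which marks active SREBP factors for degradation, was lower, at -0.29 on the log2 scale (edgeR adjusted p = 0.0113). The escort gene Scap, at 0.33, and the protease gene Mbtps1, at -0.018, did not pass (edgeR adjusted p = 0.0582 and 0.882).

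Of the 9 genes of LXR and efflux, Abca1 and Lpcat3 were higher and 4 were lower by the same edgeR test, with a median log2 fold change of -0.78. The higher share, 22.2%, lies near the 23.7% of all genes, and the lower share is 44.4%, against 21.0% of all genes. Abcg1, the other main cholesterol efflux pump of myeloid cells, was at 190.0, 160.3, 149.9 and 191.7 CPM in WT mice and at 88.7, 79.1, 95.9 and 103.2 CPM in *Cxcr2-/-* mice. All *Cxcr2-/-* libraries were below all WT libraries, and mice 3 and 4 did not stand apart from the other two in the way they did for Abca1. Its log2 fold change was -0.91 ± 0.11 (SE, edgeR adjusted p = 3.91e-05). Mylip, an LXR target that degrades lipoprotein receptors, and Arl4c, another LXR target, were lower with log2 fold changes of -1.02 and -1.28 (edgeR adjusted p = 6.54e-06 and 2.51e-06). Rxra, the partner of the LXR receptors, was lower (-0.78, edgeR adjusted p = 1.35e-04), while the LXR genes Nr1h2 and Nr1h3 did not pass, at 0.076 and -0.78 (edgeR adjusted p = 0.559 and 0.233). Lpcat3, an LXR target that remodels phospholipids, was higher, at 0.64 on the log2 scale (edgeR adjusted p = 3.30e-04).

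Of 15 genes of uptake and transport, 5 were higher and 3 lower by edgeR's quasi-likelihood test (median log2 fold change 0.24). These shares, 33.3% and 20% of the list, lie near the 23.7% and 21.0% of all genes. Scarb1, the receptor that takes up cholesterol from high-density lipoprotein, was at 13.1, 8.98, 11.5 and 11.3 CPM in WT mice and at 46.7, 46.8, 52.6 and 41.2 CPM in *Cxcr2-/-* mice. The groups were far apart, with a log2 fold change of 2.07 ± 0.13 (SE, edgeR adjusted p = 1.79e-07), a 4.19-fold difference. Stard4, a sterol carrier, was higher at 1.5 on the log2 scale (adjusted p = 1.41e-05) and the lipoprotein receptor gene Lrp8 with 0.73 (adjusted p = 9.39e-04), both by edgeR, and Npc2 and Gramd1b, which move cholesterol out of lysosomes and between membranes, with 0.33 each. Lipa, the lysosomal acid lipase that frees cholesterol from its esters, was at 117.5 ± 12.0 CPM in WT mice and 68.0 ± 5.14 CPM in *Cxcr2-/-* mice (log2 fold change -0.79, edgeR adjusted p = 3.86e-05). Gramd1a, which carries sterol from the plasma membrane, and Scarb2, a lysosomal membrane protein, were lower at -0.50 and -0.38 (edgeR adjusted p = 0.00190 and 0.00499). Lrp1 was at 47.1, 49.6, 150.0 and 134.8 CPM in the *Cxcr2-/-* libraries and between 46.8 and 63.0 CPM in WT, and its log2 fold change of 0.74 did not pass (edgeR adjusted p = 0.0811). As for Abca1, the libraries of mice 3 and 4 alone were above WT, and without them the value was -0.26 (edgeR adjusted p = 0.125).

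Of 4 genes of cholesterol esters, 3 were tested and 2 of these were called higher, against 23.7% of all genes tested. Soat1, which esterifies cholesterol, and Nceh1, which hydrolyses the esters, were both higher at 0.33 on the log2 scale (edgeR adjusted p = 0.00643 and 0.00730), a difference under 1.5-fold. Soat2, at 0.30, did not pass (edgeR adjusted p = 0.145), and Lcat was removed by the filter on low counts.

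Fatty acid synthesis genes, known targets of SREBP1, were split. Of 12 tested, 5 were higher and 2 lower by the same edgeR test (median log2 fold change 0.58), and Fads2 was removed by the filter. These are 41.7% and 16.7% of the list, against 23.7% higher and 21.0% lower over all genes tested. Acly, which makes cytosolic acetyl-CoA from citrate, was at 150.5 ± 13.4 CPM in WT mice and 251.8 ± 37.0 CPM in *Cxcr2-/-* mice, and Acaca, the acetyl-CoA carboxylase, at 5.28 ± 0.535 and 13.9 ± 1.27 CPM, with log2 fold changes of 0.74 and 1.40 (edgeR adjusted p = 2.36e-04 and 4.26e-06). Acss2, which makes acetyl-CoA from acetate, was lower, at 31.9 ± 1.69 CPM in WT mice and 13.3 ± 1.60 CPM in *Cxcr2-/-* mice (log2 fold change -1.27, edgeR adjusted p = 2.02e-06). The desaturase genes went opposite ways, Scd2 higher with 1.48 and Scd1 lower with -1.23 (edgeR adjusted p = 1.89e-04 and 0.0291). Fasn, the fatty acid synthase, did not pass (0.19, edgeR adjusted p = 0.692).

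**Figure D5:**
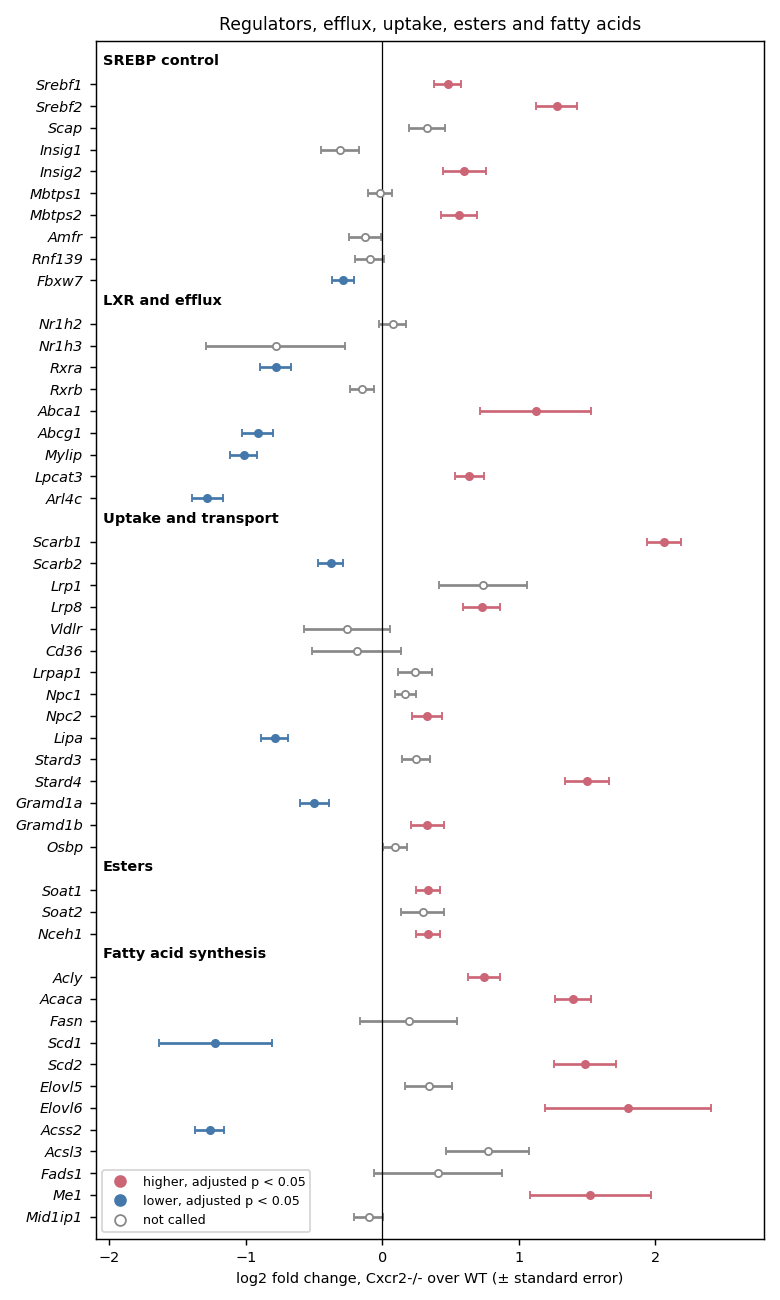
Log2 fold change, *Cxcr2-/-* over WT (x axis), with its standard error, of the genes tested that regulate SREBP, act with LXR, or serve uptake, esters and fatty acid synthesis. Red and blue points passed an adjusted p under 0.05 as higher or lower and open points did not, with Scarb1 farthest to the right at 2.07 and Arl4c farthest to the left at -1.28.

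Among 10 genes that use prenyl diphosphates, 6 were higher and 1 lower by edgeR's quasi-likelihood test (median log2 fold change 0.39). These are 60% and 10% of the list, against 23.7% and 21.0% of all genes tested. Pdss2, a subunit of the enzyme that makes the ubiquinone tail, was the only higher one past 1.5-fold (log2 fold change 1.11, edgeR adjusted p = 1.16e-04), while Coq2, which attaches that tail, was lower (-0.92, edgeR adjusted p = 1.75e-04). The protein prenyltransferase genes Pggt1b, Rabggta and Fnta were higher with log2 fold changes of 0.50, 0.42 and 0.39.

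Without the *Cxcr2-/-* libraries of mice 3 and 4, edgeR called 4 genes of SREBP control higher and 1 lower, 1 gene of LXR and efflux higher and 5 lower, and 5 genes of uptake and transport higher and 3 lower. Of the ester genes 2 were then higher, of the fatty acid genes 4 higher and 2 lower, and of the prenyl diphosphate users 4 higher and 1 lower. The shares of all genes called without these libraries are not given here. These counts, and those of the members without these libraries, therefore cannot be set against the 23.7% and 21.0% of the full fit.

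The genes whose pattern was most like that of a member were found among 7502 genes whose average log2 CPM was 3 or more, by the root mean square difference between centred log2 CPM over the 8 libraries. The nearest to Hmgcs1 were Srpk1 and Nras, both at 0.044. Sqle had Prom1 at 0.063, and Idi1 had Smc6 at 0.076. Srebf1 was matched most closely, by Tradd at 0.038 and Cs at 0.041, and Srebf2 by Gm7694 and Mlst8 at 0.086 and 0.090. The nearest to Insig1 were Nop56 and Pced1a, at 0.078 and 0.084. Fdps, with few counts, had no close match (Espl1 at 0.27 and Marveld1 at 0.27). For Abca1 the nearest was Lrp1 at 0.30, a member of the uptake list, followed by P2ry6 at 0.36, which was at 17.8 and 16.9 CPM in *Cxcr2-/-* mice 3 and 4 and between 6.45 and 8.58 CPM in the other 6 libraries.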

How the data were processed

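RNA of sorted spleen neutrophils was depleted of ribosomal RNA and made into strand-specific libraries, and, after trimming, the authors used STAR for alignment (mm10) and HTSeq for counting. The deposited values are raw counts per gene. Totals of pairs outside genes served only to describe libraries. GENCODE M21 (GRCm38) holds 52133 of the 55414 identifiers and lacks 3281 (1.42% of counts), so the counting used another annotation, and coordinates and exon lengths are those of M21.

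Counts were compared in R 4.3.3 with edgeR 4.0.16 (quasi-likelihood test, TMM, filterByExpr, Benjamini-Hochberg adjustment over 16778 genes). The steps were also run on simulated data with 200 changed genes. There edgeR recovered 65% of the 2-fold and 94% of the 4-fold changes, with 9 false calls. Far more genes were called in the real data, so the simulation does not show how the steps perform there. Standard errors are the log2 fold change over the root of the F statistic. A gene was called at an adjusted p under 0.05. DESeq2 1.42.0, the tool of the study, was an alternative, with other scalings, filters, covariates and left-out libraries. No library was a copy of another (chi-square of 23.9 to 99.0 per gene between replicates). Nothing in the labels ties each library to a litter or day. Members and lists were chosen with earlier results of these data known. All members were named, with the called genes of each list (the largest changes first), up to 2 nearest patterns per member and markers where discussed. Ratios within libraries were chosen after their values were seen. Some genes of the pathway are not reported here.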

Additional observations from a re-analysis of the deposited data

Results flagged for a closer look

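Values were checked for a library far from the other 3 of its group, which chance gives in about 1 in 20 groups. The check covered, in both groups, the 8 members, counts on genes, the share of pairs that met no gene and the share of counts on the top 10 genes. Chance alone can give flags in a check of this size. For Idi1 the lowest *Cxcr2-/-* library, mouse 1, was at 2.28 CPM, with a gap to the next of 0.836 of the group's range. The share of pairs that met no gene was 31.4% in WT mouse 1, below the other WT libraries by 0.851 of their range.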

How the results depend on the processing

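Hmgcs1, Sqle and Srebf2 kept their direction and their call under every alternative run, with log2 fold changes of 0.72 to 0.88, 1.14 to 1.41 and 0.98 to 1.52. Upper-quartile scaling shifted the median of all genes by -0.12 on the log2 scale and gave 3061 genes higher and 4341 lower, and total counts 3232 and 4034, against 3969 and 3526 with TMM. Over the libraries left out in turn, log2 fold changes ran from 0.80 to 1.39 for Abca1 (not called without WT mouse 2, 3 or 4 or *Cxcr2-/-* mouse 3 or 4) and from -0.44 to -0.22 for Insig1 (called without *Cxcr2-/-* mouse 3, at -0.44), and counts from 6 to 7 members higher, 0 to 1 lower, 1 to 2 synthesis genes lower, 1 to 2 SREBP control genes lower, 1 to 2 LXR and efflux genes higher, 3 to 5 uptake genes higher and 1 to 2 fatty acid genes lower. Where a call or count changed, the cause was not tested unless given.

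With *Cxcr2-/-* libraries 3 and 4 both left out (chosen after seeing the data, as was the monocyte covariate), log2 fold changes were 0.64 for Idi1 and -0.14 for Abca1, both not called, and -0.60 for Insig1, called, with 5 members higher and 1 lower, 1 synthesis gene lower, 1 LXR and efflux gene higher, 4 fatty acid genes higher and 4 prenyl users higher. With the monocyte covariate they were 0.60 for Idi1, -0.56 for Insig1 (called) and -0.092 for Abca1, with 1 member, 1 synthesis gene and 2 SREBP control genes lower and 1 LXR and efflux gene higher. As given above, this covariate nearly marks *Cxcr2-/-* libraries 3 and 4 alone. The covariate for non-neutrophil markers gave -0.32 for Insig1, called, 1 member lower and 2 SREBP control genes lower. The share of pairs that met no gene, which nearly separates the groups, took the calls of Fdps (0.98), Srebf1 (0.24) and Abca1 (1.13). It left 4 members higher, 10 synthesis genes higher and 1 lower, 1 SREBP control gene higher and 0 lower, 0 LXR and efflux genes higher, 2 uptake genes higher, 0 ester genes higher, 3 fatty acid genes higher and 1 lower and 2 prenyl users higher.

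Upper-quartile scaling gave -0.43 for Insig1, called, and 1.01 for Abca1, not called, with 1 member and 2 SREBP control genes lower, 1 LXR and efflux gene, 3 uptake genes and 0 ester genes higher and 2 prenyl users lower. Total counts gave 1.07 for Abca1, not called, 1 LXR and efflux gene higher and 3 uptake genes higher. DESeq2 gave 1.1 for Abca1, not called, 1 LXR and efflux gene higher and 1 fatty acid gene lower. Without a filter 1 synthesis gene was lower, and with at least 10 counts in every library, which removes Fdps, 3 fatty acid genes were higher. With at least a 1.5-fold change, 1 synthesis gene was lower, 2 SREBP control genes higher and 0 lower, 3 uptake genes higher and 1 lower, 0 ester genes higher and 1 prenyl user higher.

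The replicate numbers did not pair the libraries, since same-numbered deviations correlated between -0.262 and 0.158. With the replicate number as a block, Abca1 had a log2 fold change of 0.87 and was not called, 1 LXR and efflux gene was higher and 1 synthesis gene lower, and no call of the other 7 members changed.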
